A study of Arabidopsis thaliana with 18 samples.

Results

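Splicing in the warm shoot apex of *sdg8-2* was compared with that of wild type (WT) in 397 of the 399 splicing events of the deposited table, which lie in 333 of its 334 listed genes. Every event with a PSI (percentage of spliced in, the part of the transcripts crossing an event that hold its spliced-in form, here from 0 to 1) for both genotypes at 25 °C was taken, and the value compared was PSI in *sdg8-2* minus PSI in WT. The 2 events of *FLOWERING LOCUS M* (*FLM*, AT1G77080), a MADS-box repressor of flowering, were set aside because both are listed at 0 in *sdg8-2*. In WT at 25 °C its alternative 5′ splice site event had a PSI of 0.69 and its intron retention event a PSI of 0.25.

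WT was Col-0, and *sdg8-2* is a T-DNA insertion line that lacks the histone methyltransferase SDG8. Plants of both genotypes were grown for 5 weeks at 16 °C under 8 h of light and 16 h of dark, and were then kept at 25 °C for 1 day. Each sample was shoot apical meristem (SAM)-enriched tissue, left after removal of leaves from about 10 plants, and each genotype had 3 samples at 25 °C. A parallel set of 3 samples of each genotype stayed at 16 °C, and a further T-DNA line, *sdg26-1*, was sampled in the same way at both temperatures, for 18 samples in all.

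The replicates of a condition had been merged before the values in the table were made, so each event has 1 PSI per genotype and temperature, with no replicate error. Differences are therefore described by their size and their number, and no test could be made. The read depth behind each PSI is not in the table. A call by the authors required a minimum of isoform-specific reads in at least 2 replicates of the conditions compared, which sets a floor for the genotypes in which an event was called and not for the others. A difference of at least 0.1 is counted as a difference here, and this bound was not derived from replicates. Every listed event had been called differentially spliced (DiS) between 16 °C and 25 °C in WT, *sdg8-2* or *sdg26-1*, and events without a temperature response were not analysed here. The table holds no event of *SDG8* and no expression levels, so neither the mutation nor the tissue could be checked in it.

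SDG8 methylates lysine 36 of histone H3, and its product H3K36me3 is a mark laid down over the bodies of transcribed genes while RNA polymerase II elongates. Most introns are removed while the transcript is still being made, and proteins that read the mark, or the speed of the polymerase, can alter which splice sites are paired. In Arabidopsis, loss of SDG8 is known for early flowering, and ambient temperature is known to shift the isoforms of flowering time genes, of clock genes and of the genes of splicing factors themselves. Events were of 5 types, namely retained introns (IR), skipped exons (ES), choice between 3′ splice sites (A3) or between 5′ splice sites (A5), and mutually exclusive exons (MXE). In the quantification 1 isoform of each event was set as reference, and the table does not say which splice site of an A3 or A5 event is the spliced-in form.

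The table gives no position for the events. In the RefSeq annotation of TAIR10.1, the gene of 138 events had exactly 1 annotated alternative of the listed type, that of 129 events had several, that of 117 had none and that of 13 was not matched. Of the 58 events that differed by at least 0.1 at 25 °C, these numbers were 13, 27, 15 and 3. The sites that follow are the annotated alternatives of 7 of these 13, shown to let the letters of the competing sites be compared where *sdg8-2* and WT differed. They were chosen after their values were seen, as 3 of the largest differences (AT1G36070, *SAC3B* and AT5G17570), genes of splicing factors (*U2AF65A* and *RS31a*) and genes of chromatin proteins (AT4G14920 and *BSH*). Whether they are the listed events is not stated in the table. Each acceptor is given with the last 20 bases of its intron and the first 4 of its exon and each donor with the last 4 bases of its exon and the first 20 of its intron, 5′ to 3′ on the strand of the gene, with the AG of acceptors and the GT of donors in capitals. In the lines with both acceptors, these bases are counted from the acceptor of the longer intron.
AT1G36070, chromosome 1 from 13470263 to 13470286, reverse strand, both acceptors: gctgttttatgtgacAGaAGaaga
AT4G14920, chromosome 4 from 8531584 to 8531607, reverse strand, both acceptors: ctccattgtttgtcaAGaAGactg
AT3G06290 (*SAC3B*), chromosome 3 from 1906910 to 1906933, reverse strand, acceptor of the shorter intron: actttgctttttgttcttAGattg
AT3G06290 (*SAC3B*), chromosome 3 from 1906856 to 1906879, acceptor of the longer intron: aatgttggatttgcttgtAGtgat
AT5G17570, chromosome 5 from 5794505 to 5794528, forward strand, acceptor of the shorter intron: gaatggatttgtgtctttAGgtac
AT5G17570, chromosome 5 from 5795050 to 5795073, acceptor of the longer intron: gttttcatccattgttgcAGaaca
AT4G36690 (*U2AF65A*), chromosome 4 from 17294600 to 17294623, reverse strand, acceptor of the shorter intron: ttggttgtgctgttttacAGcctt
AT4G36690 (*U2AF65A*), chromosome 4 from 17294427 to 17294450, acceptor of the longer intron: ctttaactcttaaaatgcAGgtgc
AT2G46610 (*RS31a*), chromosome 2 from 19137811 to 19137834, reverse strand, donor of the shorter intron: gcagGTgttgtatatttatttagt
AT2G46610 (*RS31a*), chromosome 2 from 19138367 to 19138390, donor of the longer intron: tctgGTaaaacgttttcttgcact
AT3G17590 (*BSH*), chromosome 3 from 6018268 to 6018306, reverse strand, skipped exon, all of it in capitals: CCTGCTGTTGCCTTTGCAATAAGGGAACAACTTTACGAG

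The acceptors of AT1G36070 and AT4G14920 lie 3 bases apart, as AG, A, AG in both genes. Such pairs were common among the listed genes: of the 54 A3 events with 1 annotated pair of acceptors, 20 had acceptors 3 bases apart, and 30 had a distance that is a multiple of 3. Only 2 of these 20 events differed by at least 0.1 at 25 °C, AT1G36070 and AT4G14920, with a median absolute difference of 0.02, beside 6 of the other 34 and a median of 0.035. The acceptors of *SAC3B* lie 54 bases apart, a multiple of 3, and those of *U2AF65A* and AT5G17570 lie 173 and 545 bases apart, which are not. In *U2AF65A*, the acceptor of the shorter intron lies in the coding span of every annotated coding isoform and that of the longer intron in that of some.

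At 25 °C, PSI in *sdg8-2* and WT differed by at least 0.1 in 58 of the 397 events (14.6%), in 53 genes. It was higher in *sdg8-2* in 31 events (7.81%) of 29 genes and lower in 27 events (6.80%) of 25 genes, and AT3G04450 had an event of each kind. The differences ranged from −0.31 to 0.38, with a median of 0 and a median absolute difference of 0.03. In all, 171 differences were positive, 187 were negative and 39 were 0 at the 2 decimals of the table. Neither direction prevailed in the warm apex, and most events had nearly the same PSI in both genotypes. The bound passed close to many events, since 9 lay at 0.10 and 5 at −0.10, and a further 5 lay at 0.09 and 3 at −0.09.

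**Figure D1:**
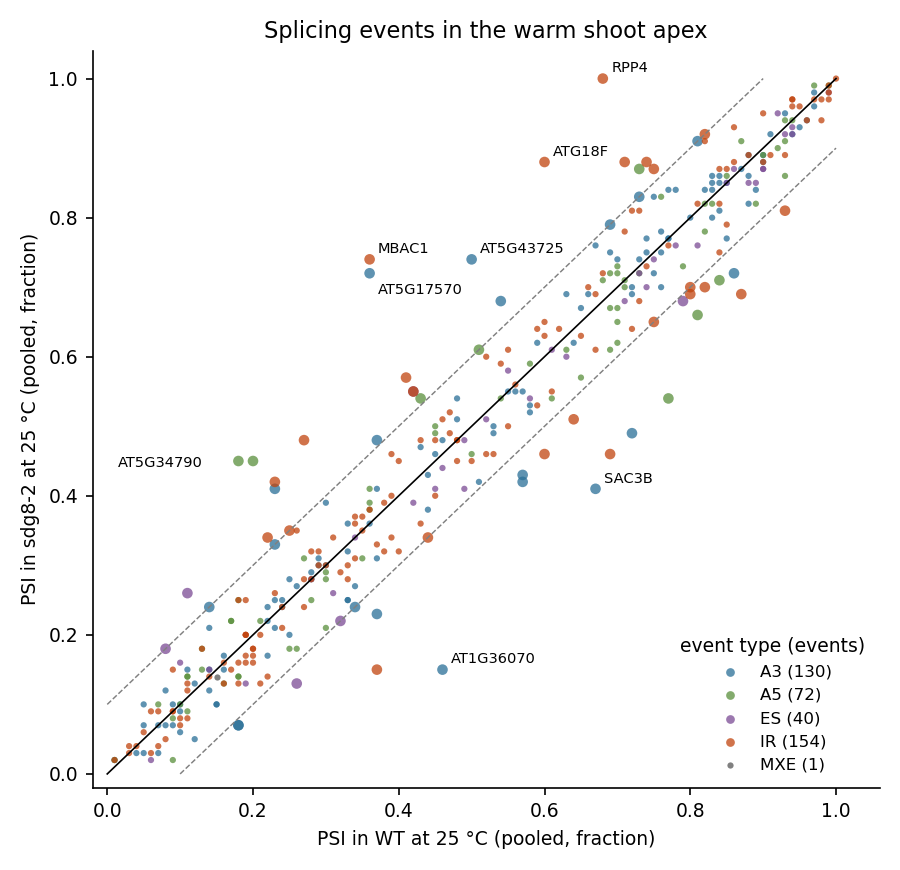
PSI in WT (x axis) against PSI in *sdg8-2* (y axis) at 25 °C for the 397 events, as fractions pooled over 3 samples, coloured by event type. The solid line marks equal PSI and the dashed lines a difference of 0.1, and the 58 events at or beyond them, drawn larger, lie on both sides.

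The largest positive difference was in an IR event of *MBAC1* (AT2G33820), which encodes a mitochondrial carrier of basic amino acids. Its PSI was 0.36 in WT and 0.74 in *sdg8-2* at 25 °C, a difference of 0.38, beside 0.28 in *sdg26-1*. AT5G17570, a gene for a TatD-related DNase, followed with an A3 event at 0.36 in WT and 0.72 in *sdg8-2*. At 16 °C the same event had 0.69 in WT and 0.67 in *sdg8-2*, so the *sdg8-2* value of the warm apex was close to both values of the cool apex and the WT value was not. In *sdg26-1* the event had 0.68 at 16 °C and 0.59 at 25 °C, so this mutant, too, was above WT in the warm apex. An IR event of *RPP4* (AT4G16860), a TIR-NB-LRR receptor for downy mildew, had 0.68 in WT, 1.00 in *sdg8-2* and 0.64 in *sdg26-1*. *RPP4* lies in a cluster of related receptor genes, and how reads shared with such copies were assigned is not given in the sources used here. *ATG18F* (AT5G54730), which encodes a WD40 protein of the autophagy machinery, had an IR event at 0.60 in WT, 0.88 in *sdg8-2* and 0.69 in *sdg26-1*.

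Below these stood a pair of A5 events listed under AT5G34790.1, an identifier not matched in the RefSeq annotation, with 0.18 and 0.20 in WT and 0.45 in *sdg8-2* for both. In *sdg26-1* they had 0.34 and 0.37, also above WT. AT5G43725, annotated as a non-coding RNA, had 0.50 in WT and 0.74 in *sdg8-2* for an A3 event, beside 0.35 in *sdg26-1*. For the 2 IR events of AT1G61430, which encodes an S-locus lectin kinase, PSI was 0.27 and 0.23 in WT and 0.48 and 0.42 in *sdg8-2*, beside 0.36 and 0.30 in *sdg26-1*. Next was the A3 event of AT5G25520, which encodes a protein with SPOC and TFIIS domains, at 0.23 in WT and in *sdg26-1* and 0.41 in *sdg8-2*.

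AT1G36070, a gene for a WD40 repeat protein whose annotated acceptors are shown above, had the largest negative difference, in an A3 event. Its PSI was 0.46 in WT and 0.15 in *sdg8-2*, a difference of −0.31, beside 0.41 in *sdg26-1*. At 16 °C it was 0.55 in WT and 0.56 in *sdg8-2*. The A3 event of *SAC3B* (AT3G06290), which encodes a subunit of the TREX-2 complex of mRNA export, had 0.67 in WT, 0.41 in *sdg8-2* and 0.49 in *sdg26-1*. Next, an A5 event of AT3G04450, which encodes a homeodomain-like protein, had 0.77 in WT and 0.54 in *sdg8-2*, and an A3 event of AT4G32000, a protein kinase gene, had 0.72 and 0.49.

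Lower PSI in *sdg8-2* was also listed for IR events of the long non-coding RNA AT1G27921 (0.69 in WT and 0.46 in *sdg8-2*), of an assembled locus without a gene name (0.37 and 0.15) and of AT3G15358 (0.87 and 0.69). AT1G27921 overlaps AT1G27920 on the other strand, and whether strand was used in the quantification is not given in the sources used here. Next came events in *SRT2* (AT5G09230), a sirtuin deacetylase gene, at 0.81 in WT and 0.66 in *sdg8-2*, and in AT1G77800, a PHD finger gene, at 0.57 and 0.42. The tenth place was shared at −0.14 by *F2KP* (AT1G07110), whose enzyme makes and breaks down fructose-2,6-bisphosphate, AT2G23790, *U2AF65A* and AT4G02540, which encodes a C1 domain protein. *F2KP* had 0.86 in WT and 0.72 in *sdg8-2*, AT2G23790 had 0.37 and 0.23, and AT4G02540 had 0.60 and 0.46.

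**Figure D2:**
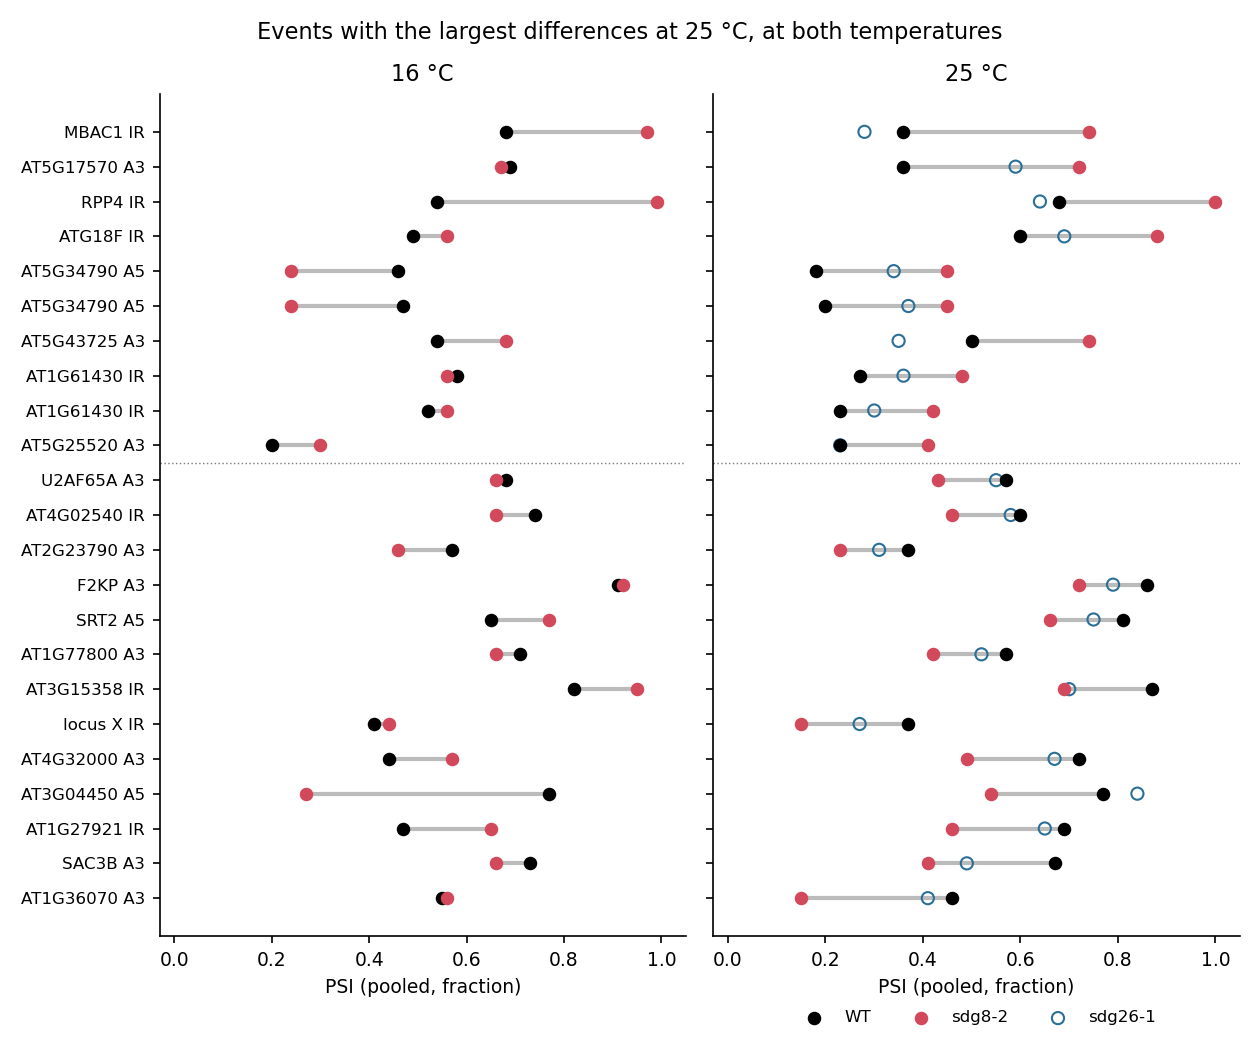
PSI, as a fraction pooled over 3 samples, in WT (black), *sdg8-2* (red) and, at 25 °C, *sdg26-1* (open blue) for the 10 largest positive and the 13 largest negative differences between *sdg8-2* and WT at 25 °C, with the same events at 16 °C on the left. Grey bars join WT and *sdg8-2*, and AT5G17570 and AT1G36070 have a long bar at 25 °C and almost none at 16 °C.

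Event types shared in the differences at 25 °C about as they shared in the table. Among the 154 IR events, 13 had a higher and 11 a lower PSI in *sdg8-2* (15.6% in all), and among the 130 A3 events 10 and 10 (15.4%). Of the 72 A5 events, 5 were higher and 3 lower (11.1%), and of the 40 ES events 3 were higher and 3 lower. The only MXE event differed by −0.01. The median was 0 for IR, A3 and A5 alike, beside 0 over all events.

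ES events stood slightly below 0, with a median of −0.02, and 28 of the 40 had a lower PSI in *sdg8-2*, 8 a higher one and 4 the same. Most of these differences were small. The 40 events lie in 36 genes, so some share a gene and may share reads, as do lower ones of AT2G23985, AT2G38260 and *PRR7*. At 16 °C the split was 19 higher and 20 lower, with a median of −0.005. The ES events past the bound at 25 °C were 2 of AT2G23985, with 0.26 and 0.32 in WT and 0.13 and 0.22 in *sdg8-2*, and that of AT5G52070, an Agenet domain gene, with 0.79 and 0.68. Higher in *sdg8-2* were the ES events of *KAT5* (AT5G48880), a peroxisomal thiolase gene (0.11 in WT and 0.26 in *sdg8-2*), of AT3G03350 (0.42 and 0.55) and of *BSH* (0.08 and 0.18). The ES event of *SCL33* is listed a further time under its neighbour *AAE18*, with the same 6 PSI values, and both were counted.

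The IR events were where the warm and the cool apex parted most in these counts. At 16 °C, 26 IR events were higher and 8 lower in *sdg8-2* (22.1%), against 13 and 11 at 25 °C, while the A3 counts at 16 °C were 10 higher and 9 lower, close to those at 25 °C. Of the 26 IR events that were higher at 16 °C, 4 were higher at 25 °C, 5 were lower and 17 differed by less than 0.1, and their median difference went from 0.14 to 0.015. A drop of this kind is built into events chosen by their 16 °C difference, so these medians are a description only.

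**Figure D3:**
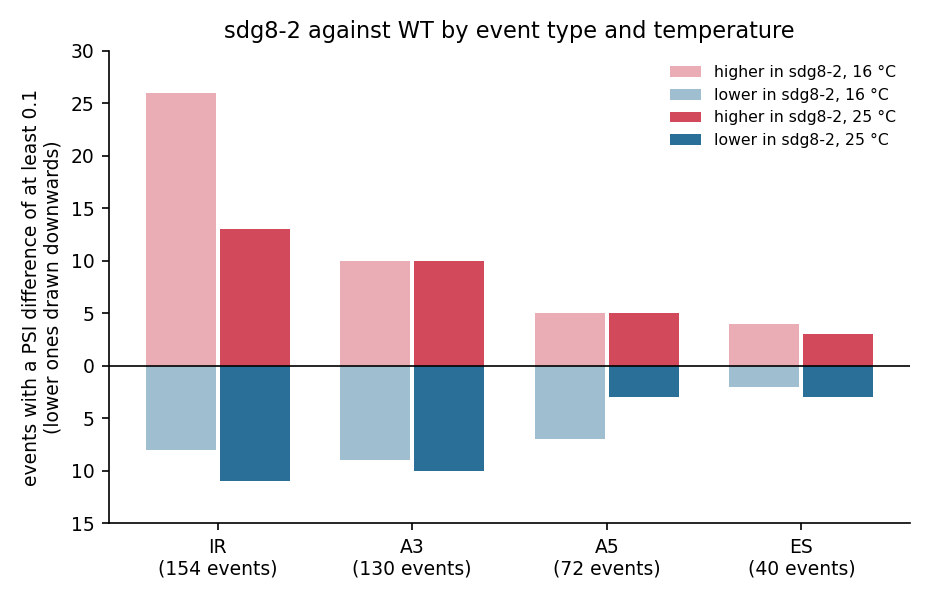
Number of events (y axis) with a PSI at least 0.1 higher in *sdg8-2* than in WT (upwards, red) or at least 0.1 lower (downwards, blue), by event type, at 16 °C (pale) and 25 °C (dark). IR events number 26 higher and 8 lower at 16 °C and 13 and 11 at 25 °C, whereas the A3 counts are alike.

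Differences were found in the middle of the PSI range. With the mean PSI of both genotypes at 25 °C between 0.3 and 0.7, 27 of 137 events differed by at least 0.1, and between 0.7 and 0.9, 20 of 100 did. In the range from 0.1 to 0.3 these were 11 of 94, and among events under 0.1 or from 0.9 upwards, 0 of 33 and 0 of 33. A difference of 0.1 is harder to reach at either end of the scale. Of the events in protein-coding genes 50 of 363 differed (13.8%, beside 14.6% over all events). Of the 11 events in 8 genes annotated as ncRNA 4 differed (36.4%), in AT1G78865, AT1G11592, AT4G36648 and AT5G43725. The other events of AT1G78865 differed by −0.02, 0.00 and 0.03. With so few events this share is a description only. The genes with a difference had a median length of 3818 bases, 11 annotated introns and 4 annotated transcripts, beside 3194 bases, 9 and 3 for genes with an event under the bound. Several events were listed for 12 of these 53 genes and for 41 of the 288 with an event under the bound, and a gene can be in both sets. More listed events give a gene more chances to pass the bound, and the part of this in the medians was not tested. Another annotated gene overlapped 23 of the 51 genes with a difference that had a position, in 7 of them on the same strand and in 19 on the other (45.1% in all). Of the 275 other listed genes with a position, 87 were overlapped (31.6%). The part of overlapping genes in the PSI differences was not tested.

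Genes of splicing factors differed in the warm apex in a share of events near that of all events. Of the 21 events in 17 genes of this group, 3 had a higher and 1 a lower PSI in *sdg8-2* at 25 °C (19.0%, beside 14.6% over all events). At 16 °C 1 was higher and 0 were lower (4.76%, beside 17.9% over all events). This group, too, was written with earlier results of these data known, and with so few events its shares are a description. Their median was 0 and their differences ran from −0.14 to 0.12. The A3 event of *U2AF65A* (AT4G36690), which encodes the large subunit of the factor that binds the polypyrimidine tract before 3′ splice sites, stood at 0.57 in WT and 0.43 in *sdg8-2* at 25 °C, beside 0.55 in *sdg26-1*. At 16 °C the values were 0.68 in WT and 0.66 in *sdg8-2*. The IR event of the same gene had 0.39 in WT and 0.46 in *sdg8-2* at 25 °C, a difference under the bound.

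*SR34* and *RS31a* encode serine/arginine-rich (SR) proteins, which bind exons and help to recruit the spliceosome. The A3 event of *SR34* (AT1G02840) had 0.23 in WT and in *sdg26-1* and 0.33 in *sdg8-2*, a difference exactly at the bound. The A5 event of *RS31a* (AT2G46610), whose annotated donors lie 556 bases apart, had 0.51 in WT, 0.61 in *sdg8-2* and 0.42 in *sdg26-1*. Its difference from WT was also exactly at the bound. *AFC1* (AT3G53570) encodes a LAMMER-type kinase, a class that phosphorylates SR proteins, and its IR event had 0.22 in WT, 0.34 in *sdg8-2* and 0.33 in *sdg26-1*. Other SR genes lay closer to WT. *SR30* differed by −0.08, the 2 IR events of *SR34b* by −0.08 and −0.06, *SCL33* by −0.03, *RS2Z33* and *RS31* by −0.01, *RS41* by 0.01 and both events of *RS40* by 0. For *U2AF65B* (AT1G60900), the A3 event had 0.30 in WT and 0.39 in *sdg8-2* and the IR event 0.59 and 0.64.

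Among the 24 events of genes for chromatin proteins, 3 were higher and 5 lower in *sdg8-2* at 25 °C (33.3%, beside 14.6% over all events). Their median was −0.035, beside 0 over all events, with 6 positive and 16 negative differences. The same group had 6 higher and 4 lower at 16 °C (41.7%, beside 17.9% over all events), with a median of −0.025. The group was written with earlier results of these data known, so its share is a description and no sign that chromatin genes stand apart.

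Among the histone-modifying genes, *ATXR7* (AT5G42400), which encodes a SET domain methyltransferase that promotes *FLC* expression, had an A3 event at 0.18 in WT, 0.07 in *sdg8-2* and 0.15 in *sdg26-1* at 25 °C. Its IR event had 0.84 in WT, 0.87 in *sdg8-2* and 0.61 in *sdg26-1* at 25 °C, so there *sdg26-1* and not *sdg8-2* lay away from WT. The A3 event of AT3G55080, also a SET domain gene, had 0.34 in WT, 0.24 in *sdg8-2* and 0.25 in *sdg26-1*. AT1G62310, a jmjC domain gene, had an IR event at 0.41 in WT, 0.57 in *sdg8-2* and 0.36 in *sdg26-1*, and was also higher in *sdg8-2* at 16 °C, at 0.42 beside 0.31. The ES event of *BSH* (AT3G17590), which encodes the SNF5-type subunit of SWI/SNF remodelling complexes, had 0.08 in WT and 0.18 in *sdg8-2* at 25 °C, and 0.03 and 0.04 at 16 °C. The only annotated skipped exon of *BSH* has 39 bases, a multiple of 3, and lies in its coding span. The A3 event of AT4G14920, which encodes a PHD finger and acetyltransferase domain protein and has the tandem acceptors shown above, had 0.81 in WT and 0.91 in *sdg8-2*. A pair of A5 events of *HAC12* (AT1G16710), a histone acetyltransferase gene, lay just under the bound, at −0.09 and −0.07, after 0.12 for both at 16 °C.

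None of the 12 events in 8 flowering time and clock genes reached 0.1 at 25 °C, where 14.6% of all events did, or at 16 °C, where 17.9% did. With so few events this is near those shares, and the 2 events of *FLM* that were set aside do not count among the 12. Nor does *ATXR7*, which promotes *FLC* expression and was placed with the chromatin genes. Its A3 event differed by −0.11 at 25 °C and 0.18 at 16 °C, and its IR event by 0.03 and −0.08. The absence of a difference thus holds only for the genes of this group. At 25 °C, 11 of the 12 were lower in *sdg8-2*, beside 187 of 397 over all events, with a median of −0.03 beside 0. Several of these events share a gene. At 16 °C, 8 were lower, 3 higher and 1 the same. *PRR7* (AT5G02810), a pseudo-response regulator of the clock, had an IR event at 0.39 in WT and 0.34 in *sdg8-2*, and ES events at 0.88 and 0.93 in WT and 0.85 and 0.92 in *sdg8-2*. *MAF3* (AT5G65060), a relative of *FLM* in the same family of floral repressors, had an ES event at 0.42 in WT, 0.39 in *sdg8-2* and 0.44 in *sdg26-1*. *COR27* (AT5G42900), a cold-induced clock regulator, had an A3 event at 0.33 and 0.25, and AT5G06980 had 0.85 and 0.77 and, in a further A3 event, 0.58 and 0.53. The exception was *LOV1* (AT2G02450), a NAC domain gene, with 0.60 in WT and 0.63 in *sdg8-2*.

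Of the 6 events of immune receptor genes, 2 were higher and 1 was lower at 25 °C (50.0%, beside 14.6% over all events), and they ranged from −0.12 to 0.32. At 16 °C, 3 were higher and 0 lower (50.0%, beside 17.9%). Besides *RPP4*, the IR event of *RLP40* (AT3G24982), which encodes a receptor-like protein, had 0.71 in WT, 0.88 in *sdg8-2* and 0.80 in *sdg26-1* at 25 °C, and 0.96 and 0.94 in WT and *sdg8-2* at 16 °C. An IR event of AT4G19510, a TIR-NB-LRR gene, had 0.82 in WT and 0.70 in *sdg8-2*. Of the 26 events of protein kinase and phosphatase genes, 5 were higher and 1 was lower at 25 °C (23.1%, beside 14.6% over all events), and 1 and 1 at 16 °C (7.69%, beside 17.9%). Their median at 25 °C was 0.015. The 5 higher events include the 2 IR events of AT1G61430, which may share reads. Apart from AT1G61430, AT4G32000 and *AFC1*, the events past the bound were the A5 event of AT1G79640, with 0.73 in WT and 0.87 in *sdg8-2*, and the A3 event of AT5G21222, with 0.73 and 0.83, exactly at the bound. *AFC1* belongs to this group and to that of splicing factors. The groups of immune receptor and kinase genes were also written with earlier results of these data known, so their shares are a description.

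The remaining groups had 0 to 2 differences each at 25 °C. Among 26 events of RNA silencing, decay and RNA-binding genes, 1 was higher (3.85%), the A5 event of *RDR6* (AT3G49500), which encodes the RNA-dependent RNA polymerase of the trans-acting siRNA pathway, with 0.43 in WT, 0.54 in *sdg8-2* and 0.53 in *sdg26-1*. Of 12 events of membrane traffic and autophagy genes, 2 were higher (16.7%), those of *ATG18F* and of *SYP41* (AT5G26980), a syntaxin of the trans-Golgi network, with 0.75 in WT and 0.87 in *sdg8-2*. Of 15 events of chloroplast genes, 1 was higher (6.67%), the A3 event of *RNEE/G* (AT2G04270), which encodes the chloroplast endoribonuclease RNase E/G, with 0.14 in WT and 0.24 in *sdg8-2*. None of the 13 events of ubiquitin system genes, the 4 of DnaJ genes and the 9 of DNA repair genes reached 0.1, and groups of this size are too small to be set apart from the 14.6% over all events. The 233 events in no group had 15 higher and 19 lower (14.6%), the same share as all events.

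Genes of metabolism and transport were among those in no group. Lower in *sdg8-2* was the IR event of AT3G49160, a pyruvate kinase family gene, with 0.93 in WT, 0.81 in *sdg8-2* and, lowest of all, 0.73 in *sdg26-1*. AT3G05165, which encodes a transporter of the major facilitator superfamily, had 0.44 in WT and 0.34 in *sdg8-2* for an IR event. Higher were the A3 event of AT3G61010, a ferritin-like family gene, with 0.37 and 0.48, and the A3 event of AT5G26180, a methyltransferase gene, with 0.69 and 0.79. The IR event of *REF4* (AT2G48110), which encodes a Mediator subunit known for its part in phenylpropanoid synthesis, had 0.25 in WT and 0.35 in *sdg8-2*, beside 0.24 in *sdg26-1*. *REF4* was assembled into the same locus as AT2G48100, whose IR event has the same PSI but for 0.26 in WT at 25 °C and so stays under the bound at 0.09. The annotation has no retained intron for *REF4* and 6 for AT2G48100. An IR event of *AAE18* (AT1G55320), an acyl-activating enzyme gene, had 0.82 and 0.92, and *AAE18* was assembled into the same locus as *SCL33*. Another IR event of *AAE18* went the other way, with 0.67 and 0.61, and its ES events differed by −0.03 and 0.00. The annotation has no retained intron for *AAE18*. AT5G38590 encodes an F-box domain protein and was not placed in the ubiquitin group, and its IR event had 0.64 and 0.51. Among the non-coding RNA genes, the A3 event of AT1G11592 was higher in *sdg8-2*, with 0.54 and 0.68. An A3 event of AT1G78865 (0.18 and 0.07) and the A5 event of AT4G36648 (0.84 and 0.71) were lower.

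**Figure D4:**
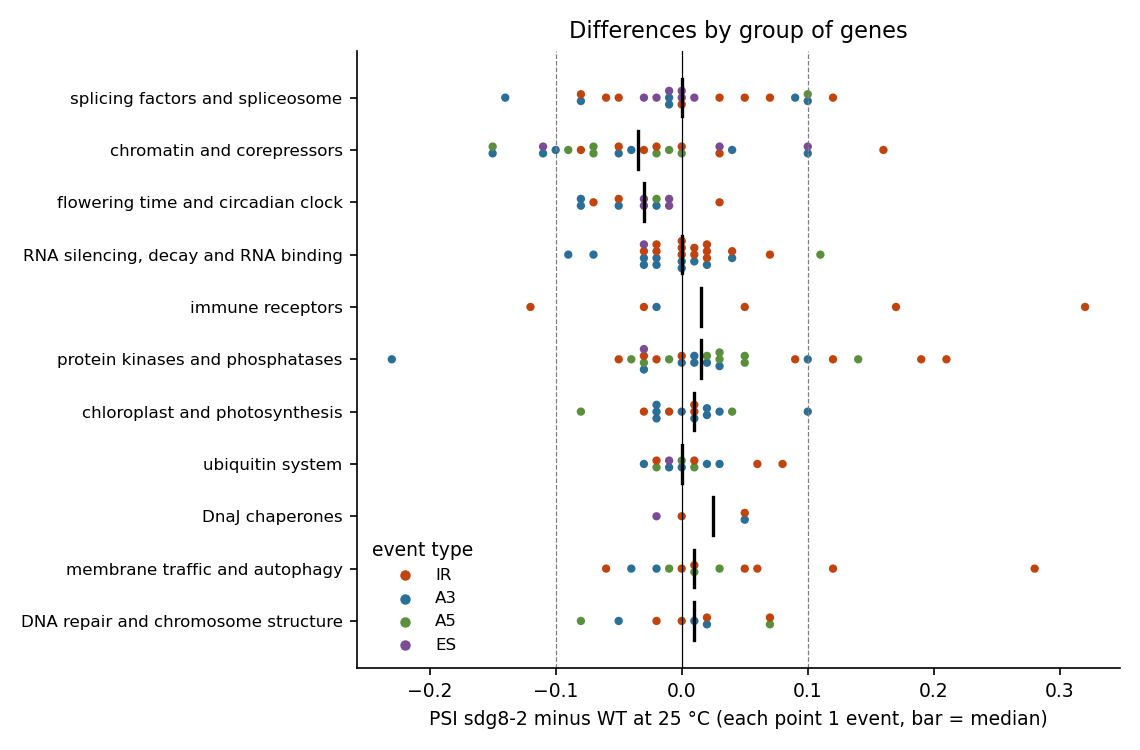
PSI in *sdg8-2* minus PSI in WT at 25 °C (x axis) for each event of 11 groups of genes (y axis), coloured by event type, with the median of the group as a black bar and dashed lines at −0.1 and 0.1. The 12 flowering and clock events lie between −0.08 and 0.03, whereas immune receptor events reach from −0.12 to 0.32.

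Of the 45 genes with several listed events, 12 had an event past the bound and 5 had more than 1. In AT1G61430 both IR events were higher in *sdg8-2*, by 0.21 and 0.19, and in AT5G34790.1 both A5 events, by 0.27 and 0.25. In AT1G61970, which encodes a mitochondrial transcription termination factor-like protein, 2 of the 3 IR events were lower by 0.10, from 0.75 and 0.80 in WT to 0.65 and 0.70 in *sdg8-2*, and the other had 0.37 and 0.33. In AT2G23985 the 2 ES events were lower, as given above. The events of these 4 genes may share reads, and the members of each pair had similar PSI in WT. Of the 5 genes, AT3G04450 alone had events past the bound in opposite directions. Its IR event had 0.42 in WT and 0.55 in *sdg8-2* and its A5 event 0.77 and 0.54.

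The difference between *sdg8-2* and WT in the warm apex was compared with that in the cool apex, where no sample is shared. At 16 °C, 71 of the 397 events differed by at least 0.1 (17.9%), 45 higher in *sdg8-2* (11.3%) and 26 lower (6.55%), with a median absolute difference of 0.04. Over the 397 events, the differences at the 2 temperatures had a Pearson r of 0.088 and a Spearman rho of 0.068, across events that share their libraries and partly their genes.

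Of the 58 events past the bound at 25 °C, 20 differed by less than 0.05 at 16 °C, 12 of them higher and 8 lower in *sdg8-2* at 25 °C. These were 10 IR, 7 A3, 1 A5 and 2 ES events. A further 14 lay between 0.05 and 0.1 at 16 °C. Over all 397 events the median absolute difference at 16 °C was 0.04, so a value under 0.05 there was common in the table. It does not set these 20 events apart. The higher ones among the 20 were led by AT5G17570, the 2 IR events of AT1G61430, *RLP40* and AT4G17310, whose IR event had 0.74 in WT and 0.88 in *sdg8-2* at 25 °C and 0.61 and 0.64 at 16 °C. The lower ones were led by AT1G36070, the locus without a gene name, *F2KP*, *U2AF65A* and an ES event of AT2G23985. For *F2KP* PSI at 16 °C was 0.91 in WT and 0.92 in *sdg8-2*, and at 25 °C 0.86 and 0.72.

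At both temperatures and in the same direction, 9 events in 8 genes differed, 7 of them higher. *MBAC1* had 0.68 in WT and 0.97 in *sdg8-2* at 16 °C, and *RPP4* 0.54 and 0.99. The A5 event of AT3G04450 had 0.77 and 0.27 at 16 °C, a difference of −0.50, the lowest of the 397 events at that temperature. In these events *sdg8-2* stood apart from WT whether or not the plants had been warmed.

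Another 15 events in 14 genes differed by at least 0.1 at both temperatures but in opposite directions. Of these, 9 were lower and 6 higher in *sdg8-2* at 25 °C. They include the 2 A5 events of AT5G34790.1, which may share reads. Over all events, 17.9% differed by at least 0.1 at 16 °C. The *ATXR7* event had 0.05 in WT and 0.23 in *sdg8-2* at 16 °C and 0.18 and 0.07 at 25 °C, so the order of the genotypes was turned. AT3G55080 had 0.12 and 0.27 at 16 °C and 0.34 and 0.24 at 25 °C. *RDR6* went the other way, with 0.67 and 0.49 at 16 °C and 0.43 and 0.54 at 25 °C. In *SRT2*, WT went from 0.65 at 16 °C to 0.81 at 25 °C and *sdg8-2* from 0.77 to 0.66. The widest turns were in the IR event of AT5G26160, a gene of unknown function, with 0.62 in WT and 0.93 in *sdg8-2* at 16 °C and 0.80 and 0.69 at 25 °C, and in the A5 events of AT5G34790.1, where WT had 0.46 and 0.47 at 16 °C and *sdg8-2* had 0.24 for both. Events entered the table through a change of PSI with temperature in some genotype, and an event whose PSI moves one way in WT and the other way in *sdg8-2* has such a change in both. What part this selection has in the number of turned events was not tested. The turn was not particular to *sdg8-2*. Except in AT1G27921, AT3G55080 and AT4G14920, *sdg26-1* also changed sides relative to WT in these events, in some by less than 0.1 at either temperature. For *RDR6*, *sdg26-1* had 0.50 at 16 °C and 0.53 at 25 °C. Both mutants are set against the same WT samples, and the part of these samples in the turns was not tested.

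**Figure D5:**
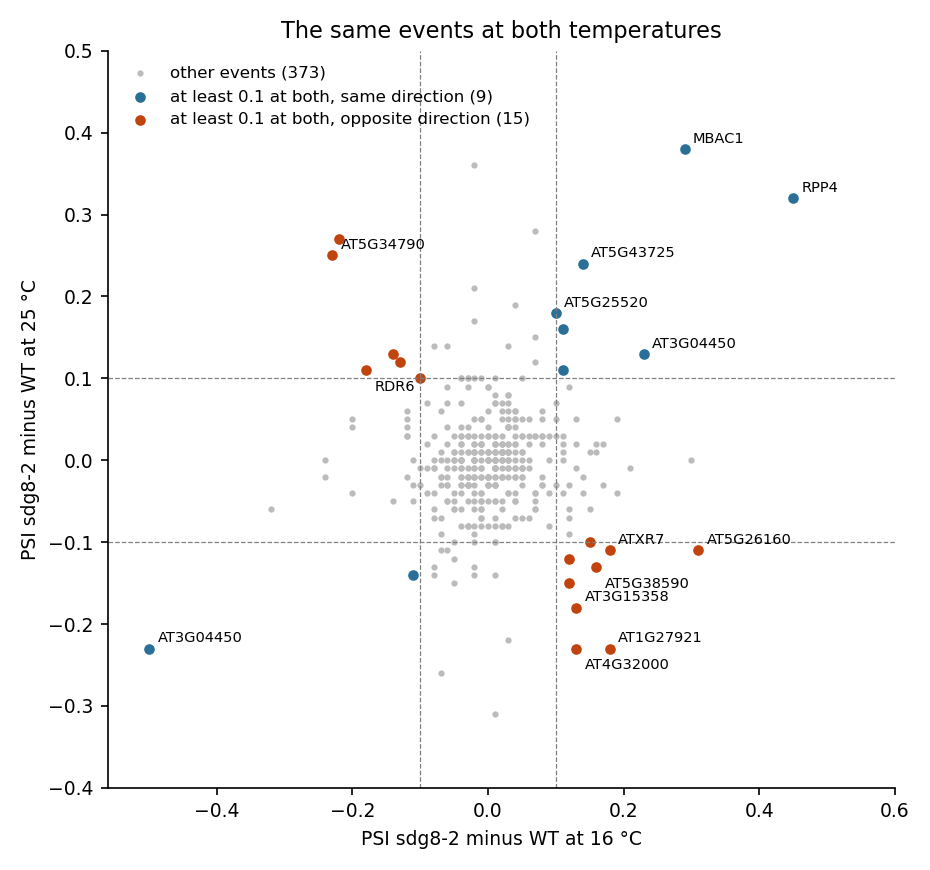
PSI in *sdg8-2* minus PSI in WT at 16 °C (x axis) against the same difference at 25 °C (y axis) for the 397 events, with dashed lines at −0.1 and 0.1. The 15 events that differed by at least 0.1 in opposite directions (orange) lie at the upper left and lower right, and the 9 in the same direction (blue) include *MBAC1* and *RPP4*.

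AT3G08840, a gene singled out in the study, was close to WT in the warm apex of *sdg8-2*. Its IR event had 0.35 in WT and 0.37 in *sdg8-2* at 25 °C, after 0.11 and 0.28 at 16 °C. *SCL33* (AT1G55310) had 0.90 in WT and 0.87 in *sdg8-2* at 25 °C.

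*sdg26-1*, which lacks the methyltransferase SDG26, shares its WT samples with *sdg8-2* in any comparison with WT, and was therefore set directly against *sdg8-2*. At 25 °C, PSI in *sdg8-2* was at least 0.1 higher than in *sdg26-1* in 36 of the 397 events and at least 0.1 lower in 33. Against WT these counts were 31 and 27. *MBAC1* had 0.74 in *sdg8-2* and 0.28 in *sdg26-1*, AT5G43725 0.74 and 0.35, and AT1G36070 0.15 and 0.41. For other events the mutants lay close together, as for *AFC1*, *RDR6* and AT3G15358, which had 0.69 in *sdg8-2* and 0.70 in *sdg26-1*.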

How the data were processed

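Poly(A) RNA of SAM-enriched tissue was sequenced from stranded libraries. TopHat2, Cufflinks and TAIR10 are named in the submitters' processing notes and MISO in the study's methods, with versions not given in the sources used here. PSI was deposited by the authors as a fraction with 2 decimals, after the 3 samples of a condition had been merged. Depth per event is unknown, so no interval is given. The deposited columns with the authors' PSI differences between temperatures and their yes or no calls were not used.

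Differences were computed as *sdg8-2* minus WT and counted at 0.1, without a test. Alternatives changed the bound, the scale (logit, PSI bounded to 0.01 and 0.99), the events counted and the limit at 16 °C. Named genes are the 10 largest differences in each direction with ties, group members past 0.1, genes with several such events, genes the study names, the 5 largest in each direction among events under 0.05 at 16 °C, and events turned between temperatures. Others were singled out after their values were seen. The comparison, genes and groups were chosen with earlier results of these data known. Gene positions and sequences are from RefSeq TAIR10.1, in which 327 of 334 identifiers matched and 306 of 315 genes with coding coordinates had the same ones. Python 3.11.15, numpy 2.4.6, pandas 2.3.3 and matplotlib 3.10.9 were used.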

Additional observations from a re-analysis of the deposited data

Results flagged for a closer look

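The 15 events with a PSI difference between *sdg8-2* and WT of at least 0.1 at both temperatures and in opposite directions are given here, since the genotypes changed order between the cool and the warm apex. With 1 pooled PSI per condition, this difference between temperatures was not tested. It was not particular to *sdg8-2*. Except in AT1G27921, AT3G55080 and AT4G14920, *sdg26-1* also changed sides relative to WT between the temperatures, in some by less than 0.1. Both mutants are set against the same WT samples. Lower in *sdg8-2* at 25 °C and higher at 16 °C were IR events of AT1G27921 (−0.23 at 25 °C and 0.18 at 16 °C), AT3G15358 (−0.18 and 0.13), AT5G38590 (−0.13 and 0.16), AT4G19510 (−0.12 and 0.12) and AT5G26160 (−0.11 and 0.31). So were A3 events of AT4G32000 (−0.23 and 0.13), *ATXR7* (−0.11 and 0.18) and AT3G55080 (−0.10 and 0.15), and the A5 event of *SRT2* (−0.15 and 0.12). Higher at 25 °C and lower at 16 °C were the 2 A5 events of AT5G34790.1 (0.25 and −0.23 for the first, 0.27 and −0.22 for the other), the ES event of AT3G03350 (0.13 and −0.14), the IR event of *SYP41* (0.12 and −0.13), the A5 event of *RDR6* (0.11 and −0.18) and the A3 event of AT4G14920 (0.10 and −0.10). The last of these lies exactly at the bound at both temperatures.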

How the results depend on the processing

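The counts at 25 °C, 31 events higher and 27 lower in *sdg8-2*, followed the bound: at 0.05 they were 70 and 80, at 0.15 they were 13 and 9, and at 0.2 they were 8 and 6. On the logit scale with a bound of 0.5 they were 41 and 43, and without IR events 18 and 16. The 20 events that differed at 25 °C but by less than 0.05 at 16 °C became 34 with a limit of 0.1 at 16 °C and 6 with a bound of 0.15 at 25 °C. The values with 1 event per gene, without loci with several genes or extreme PSI, with the *FLM* events kept, and the medians by event type moved little. The order of the directions turned at 0.05 and on the logit scale. No paired analysis was possible because the replicates of each condition were merged before PSI was deposited, and leaving out a replicate was impossible for the same reason. Depth per event is unknown, and values are rounded to 0.01.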
